A study of Mus musculus with 38 samples.

Results

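Cadherins, protocadherins, neurexins, neuroligins and the leucine-rich repeat proteins of the Lrrtm and Slitrk families are membrane proteins through which nerve cells hold on to each other and organize synapses. The genes described here were chosen by symbol from the list of 23420 genes that each library was counted on, as every gene whose symbol starts with Pcdh or with Cdh and a digit, together with Nlgn1 to Nlgn3, Nrxn2 and Nrxn3, Lrrtm1 to Lrrtm4 and Slitrk1 to Slitrk6. This gave 109 genes, of which 59 were clustered protocadherins (15 alpha, 22 beta and 22 gamma), 12 were protocadherins outside the clusters, 23 were cadherins, 2 were neurexins, 3 were neuroligins, 4 were Lrrtm genes and 6 were Slitrk genes. The choice went by symbol alone.

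RNA came from granule cells of the dentate gyrus of adult male Arc::dVenus mice on a C57BL/6J background, in which the Arc promoter drives dVenus, a destabilized fluorescent protein. Fear conditioned mice (FC, n = 12) had received tones paired with foot shocks in a chamber, no shock mice (NS, n = 4) had been through that protocol without the shocks, and home cage mice (HC, n = 3) had never entered the chamber. Brain slices of FC and NS mice were made a day after training, and the somata of 10 fluorescent (dVenus+) and 10 neighboring nonfluorescent cells (dVenus-) of each mouse were aspirated as nucleated patches and pooled into 1 library each, which gave 38 libraries prepared by the SmartSeq2 method. The reporter follows Arc promoter activity, so dVenus+ cells were also found in untrained HC mice, and all 3 groups carry the transgene. A pool of 10 cells does not tell apart fewer cells with a transcript from less transcript per cell.

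Classical cadherins bind cadherins on a facing cell and are tied to actin by catenins. Each neuron is thought to use a small set of clustered protocadherins, picked by promoter choice, as a cell surface identity code, whereas the protocadherins outside the clusters act in axon sorting and in the removal of synaptic receptors and adhesion proteins. Neurexins sit on the presynaptic side and bind neuroligins and Lrrtm proteins across the cleft, and Slitrk proteins bind presynaptic receptor phosphatases.

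Total counts on genes ran from 1352288 to 18394761 in FC, from 5713182 to 8771721 in NS and from 5970884 to 9096451 in HC libraries. In the NS and HC groups, 1 free-text label of 10 of the 14 libraries named another library than their title and sample ID did, and groups were taken from titles and the matching characteristics. Arc, the gene whose promoter drives the reporter, was at 123 to 754 normalized CPM (counts relative to the scaled library total) in NS dVenus+ libraries against 0 to 3.63 in NS dVenus- libraries, and at 211 to 490 against 0 to 4.44 in HC. In FC it was at 545 to 1803 in dVenus+ and at 0 to 193 in dVenus- libraries, and over 100 Arc counts were found in the dVenus- libraries of 3 mice, 06, 07 and 14. The summed level of 9 granule cell markers was lower in dVenus+ than in dVenus- cells of all 12 FC, 4 NS and 3 HC mice. In FC it was at 119 to 3362 CPM in dVenus+ (mean 1299 ± 906, SD, n = 12) and at 2033 to 6364 in dVenus- libraries (3488 ± 1225), and the means were 898 against 3047 in NS and 932 against 3432 in HC. In FC 6 of these 9 markers were called as lower, as were 2.84% of all genes tested. Of 7 microglial markers 5 were tested in FC and 2 called as higher, as were 1.5% of all genes, with a summed range of 29.0 to 1458 CPM in dVenus+ and 1.73 to 459 in dVenus- libraries, and the means were 340 against 126 in NS and 358 against 235 in HC. Of 6 interneuron markers 3 were tested in FC and 1 called as lower (summed ranges of 11.8 to 600.5 and 33.4 to 3841 CPM). Of 7 astrocyte markers 4 were tested in FC and 0 called, and of 6 oligodendrocyte markers 4 and 0, where 4.35% of all genes were called. Mean astrocyte sums in dVenus+ and dVenus- libraries were 310 and 998 CPM in FC, 1334 and 2156 in NS, and 1085 and 751 in HC. Oligodendrocyte sums were 634 and 889 in FC, 1037 and 2202 in NS, and 797 and 1625 in HC. As normalized sums the FC means were 477 and 936 for astrocytes, and 1000 and 889 for oligodendrocytes. None of the 9 granule cell, 7 microglial and 6 interneuron markers was at 0 in all dVenus+ libraries of FC mice, and the part of these shifts in the results below was not tested.

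The members differed widely in how often they were found. Counting 10 or more reads as found, 7 members were found in all 38 libraries: the neurexins Nrxn2 and Nrxn3, the neuroligin Nlgn2 of inhibitory synapses, the protocadherins Pcdh8, Pcdh9 and Pcdh17, and N-cadherin (Cdh2). Another 62 members were found in 1 to 9 libraries, and 3 (Cdh3, Pcdha2 and Pcdha4-g) in none. By mean CPM over all FC libraries, Pcdh9 (264 ± 277, SD, n = 24), Pcdh17 (197 ± 169) and Pcdh8 (163 ± 177) led. Pcdh8 owes its place to the dVenus+ libraries, with a mean of 259.9 CPM there and of 66.6 in dVenus- libraries, where Pcdh20 (161) and Lrrtm1 (156) were higher. Per kilobase of exon, Pcdh9 (39.0 ± 40.9 CPM per kb), Lrrtm1 (38.7 ± 25.2) and Pcdh8 (36.0 ± 39.0) led, and their order lies within the spread between libraries.

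After fear conditioning, dVenus+ and dVenus- cells differed in 7 of the 32 members that had enough counts to be tested. The protocadherins Pcdh8 and Pcdh7, the cadherin Cdh10 and the neurexin Nrxn3 were higher in dVenus+ cells, and the postsynaptic neurexin ligand Lrrtm2, the protocadherin Pcdh19 and the cadherin Cdh8 were lower. Called genes had an adjusted p under 0.05 and a log2 fold change of more than 1 in size, in a fit to 9709 genes that reached 10 counts in 12 or more libraries, with the mouse as a block. Of all genes tested 4.35% were called, 1.5% as higher and 2.84% as lower, and the 7 members are 21.9% of the members tested, 4 higher and 3 lower. The median log2 fold change was -0.74 over the tested members and -0.11 over all genes, and 11 of the 32 members had an unadjusted p under 0.05, as did 17.8% of all genes. Of the 77 members left untested in FC, 55 were clustered protocadherins. For each of the 7 members called, the values of the cell types overlapped between libraries, and only 0.124% of all genes tested had groups without overlap. Of the 32 members, Pcdh8 and Nrxn3 went the same way in every mouse, as did 1.63% of all genes tested.

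**Figure D1:**
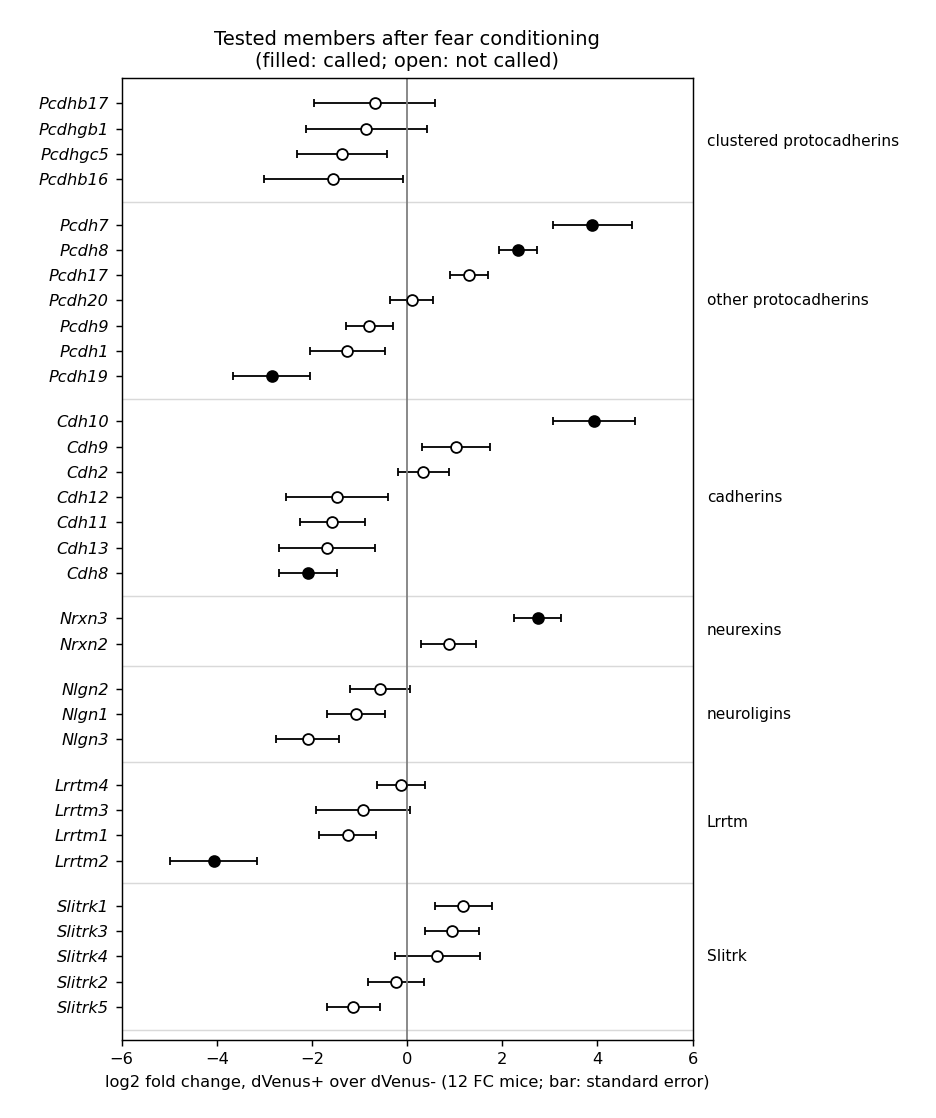
Log2 fold change of dVenus+ over dVenus- cells (x axis) with its standard error for the 32 tested members in 12 FC mice, grouped by family (y axis), with called members filled. Members called as higher and as lower occur side by side among the protocadherins outside the clusters and the cadherins, whereas all tested clustered protocadherins, neuroligins and Lrrtm genes have estimates below 0.

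The calls depend on the test and the mice. With the older quasi-likelihood method of the same software 3 members were called (Nrxn3, Pcdh7 and Pcdh8), against 1.41% of all genes. Without mouse 14, 4 members were called. By the code that opens their sample IDs, the FC mice fall into sets of 2, 4 and 6 mice. No member was called within a set, where 0, 12 and 15 of all genes were called and 5 of 40, 5 of 30 and 10 of 37 members tested had an unadjusted p under 0.05, as did 7.66%, 10.9% and 10.7% of all genes. For each of the 7 members every set that could be fitted gave the direction of all 12 mice.

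Protocadherins outside the clusters gave 3 of the 7 calls. Pcdh8, also known as arcadlin, is an activity-induced protocadherin that takes up N-cadherin from the synapse. Its level ran from 125 to 623 normalized CPM in FC dVenus+ libraries (median 219) against 10.5 to 143 in dVenus- libraries (median 50.8). It was higher in dVenus+ cells in 12 of 12 mice, by 2.34 ± 0.40 on the log2 scale (estimate ± SE, adjusted p = 0.00079), with estimates of 1.96 to 3.30 in the 3 sets. Pcdh7, another protocadherin of the delta class, lay at 0.578 to 59.3 normalized CPM in dVenus+ (median 9.88) and at 0 to 7.08 in dVenus- libraries (median 0.275), of which 4 held no count. Pcdh7 was higher in dVenus+ cells in 11 of 12 mice (log2 fold change 3.89 ± 0.82, adjusted p = 0.0049), but it is a scarce transcript that dropped below the count filter when mouse 06, 10 or 14 was left out and reached it in the set of 6 mice only. Part of its exons also belongs to the gene 4932441J04Rik, and whether the counting used strand is not given in the sources used here.

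Pcdh19, an X-linked protocadherin mutated in a form of epilepsy, went the other way. It ranged from 0.145 to 238 normalized CPM in dVenus+ libraries (median 16.2) against 49.1 to 284 in dVenus- libraries (median 103), and it was lower in dVenus+ cells in 9 of 12 mice (log2 fold change -2.85 ± 0.80, adjusted p = 0.038). The dVenus+ library of mouse 07, at 238, was above 10 of the 12 dVenus- libraries. The call was lost in 8 of 12 fits that left out 1 mouse (01, 03, 05, 06, 09, 12, 13 or 14), where the adjusted p reached 0.089, and without the block. Pcdh17, which marks synapses of particular circuits, was higher in 10 of 12 mice but was not called (log2 fold change 1.30 ± 0.40, adjusted p = 0.059), and was called without the block. Pcdh9 (-0.80 ± 0.49), Pcdh1 (-1.25 ± 0.79) and Pcdh20 (0.10 ± 0.45) were not called either.

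To show a pair of these genes at their start sites, the 250 bases before the start site are given for Pcdh8 and Cdh8. Pcdh8 is the member with the lowest adjusted p. Of the other called members that were searched, Cdh8 is the only one whose window held one of the motifs. RefSeq start sites on GRCm38.p6, the assembly named mm10 in the files, were used for 6 of the 7 called members. The remaining called member was left out of the search, so nothing is said here about its window. Pcdh8 lies on chromosome 14, at chr14:79766772-79771312 on the minus strand, and its window is chr14:79771313-79771562. Cdh8 lies on chromosome 8, at chr8:99024471-99417666, also on the minus strand. Its window, chr8:99416472-99416721, precedes the start site used here but lies inside that span of the gene, not upstream of it. Both read 5′ to 3′ toward the start site, with the matched motif in capitals.
Pcdh8: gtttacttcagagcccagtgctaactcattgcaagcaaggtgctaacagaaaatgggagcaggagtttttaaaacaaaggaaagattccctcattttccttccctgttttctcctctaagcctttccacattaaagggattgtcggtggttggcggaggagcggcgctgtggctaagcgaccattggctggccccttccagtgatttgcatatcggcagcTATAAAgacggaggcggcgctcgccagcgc
Cdh8: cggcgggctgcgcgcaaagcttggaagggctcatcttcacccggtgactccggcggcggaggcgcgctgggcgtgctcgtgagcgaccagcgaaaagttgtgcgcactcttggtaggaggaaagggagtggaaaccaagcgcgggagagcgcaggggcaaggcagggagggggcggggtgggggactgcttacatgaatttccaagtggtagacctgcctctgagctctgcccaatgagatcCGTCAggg
The capitals in Pcdh8 mark the letters TATAAA, 30 bases before the start, which 12.4% of 32851 RefSeq promoter windows of this length hold on either strand. Those in Cdh8 mark TGACG, the core of the cyclic AMP response element, read on the opposite strand 8 bases before the start, which 17.8% hold. The full element TGACGTCA was in none of the windows of these 6 genes, Nrxn3 with 3 start sites included, and in 1.55% of all windows. Like that of Cdh8, the windows of Cdh10, Pcdh7 and Nrxn3 lie inside the span of their gene, and so does part of the Pcdh19 window. Each match is a description of letters in a window.

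Cadherins gave 2 calls, both in the classical type II group, whose members pair with themselves and with close relatives. Cdh10 ran from 0.564 to 162 normalized CPM in dVenus+ (median 42.2) against 0 to 15.6 in dVenus- libraries (median 4.36) of FC mice. It was higher in dVenus+ cells in 11 of 12 mice (log2 fold change 3.93 ± 0.85, adjusted p = 0.0062), the exception being mouse 12 with 0.564 against 15.6, and the call was lost without the mice with many Arc counts (adjusted p = 0.060) and with the older method (0.084). Cdh8 ran from 0 to 59.4 (median 18.1) against 1.97 to 405 (median 75.5) and was lower in 10 of 12 mice (log2 fold change -2.08 ± 0.61, adjusted p = 0.047). The Cdh8 call lay at the threshold and was lost in 9 of 12 fits that left out 1 mouse (01, 03, 06, 07, 09, 10, 12, 13 or 14), where the adjusted p reached 0.107. Cdh11, first described in bone-forming cells, was lower in 9 of 12 mice without being called (-1.57 ± 0.68, adjusted p = 0.21), and Cdh2, the N-cadherin that Pcdh8 binds, was higher in 6 and lower in 6 mice (0.34 ± 0.54, adjusted p = 0.81).

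The presynaptic neurexin Nrxn3 was higher in dVenus+ cells. Its level ran from 104 to 792 normalized CPM in FC dVenus+ libraries (median 166) against 1.76 to 131 in dVenus- libraries (median 26.4), and 11 of 12 dVenus- libraries lay below every dVenus+ library. It was higher in 12 of 12 mice (log2 fold change 2.74 ± 0.50, adjusted p = 0.0013). Nrxn2 was at 10.4 to 280.3 (median 51.5) against 4.80 to 113 (median 31.3), and was not called (0.87 ± 0.58, adjusted p = 0.46).

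Among the postsynaptic partners of neurexins, Lrrtm2 alone was called. Lrrtm2, which binds neurexins at excitatory synapses, held no count in 5 of 12 FC dVenus+ libraries and reached 10 counts in 3, with a range of 0 to 28.4 normalized CPM (median 0.580). In dVenus- libraries it was found in 12 of 12, at 6.29 to 141 (median 34.8). It was lower in dVenus+ cells in 11 of 12 mice (log2 fold change -4.06 ± 0.91, adjusted p = 0.0074), and the dVenus+ libraries of mice 10, 13 and 14 held 22.1, 28.4 and 14.0. The call was lost without the 3 mice with over 100 Arc counts in dVenus- cells (adjusted p = 0.055), without the 3 mice with shallow libraries (0.063) and with the older method (0.065), with estimates of -4.21, -3.37 and -5.56. Lrrtm2 is the called member whose start site was not searched for motifs. It shares 95 of 6022 exonic bases with Ctnna1. Exonic bases shared with other genes also came to 436 of 4538 for Pcdh8 (Gm9748), 439 of 12605 for Nrxn3 (Gm37980) and 3823 of 9271 for Nlgn3 (Gm21986). They came to 57 of 10464 for Pcdh19 and 23 of 7740 for Cdh8. The other Lrrtm genes had estimates of -1.25 ± 0.61 (Lrrtm1, adjusted p = 0.28), -0.93 ± 0.99 (Lrrtm3) and -0.12 ± 0.51 (Lrrtm4). Of the neuroligins, Nlgn3 was lower in 10 of 12 mice at an adjusted p of 0.064 (-2.09 ± 0.66) and was called by DESeq2 (as were 16.8% of all genes), beside Nlgn1 (-1.07 ± 0.61) and Nlgn2 (-0.57 ± 0.63). Summed over the 3 neuroligins, dVenus+ cells held 117 ± 75.0 CPM and dVenus- cells 226 ± 79.4 (SD, n = 12), and the normalized sum was higher in dVenus+ cells in 1 of 12 mice. It was higher in dVenus+ cells in 4 of 4 NS mice, where the mean normalized sums were 138 and 81.0 but the unscaled ones 111 and 127, and in 2 of 3 HC mice. The HC means were nonetheless lower in dVenus+ cells, at 55.3 against 104 for normalized and 61.4 against 185 for unscaled sums.

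The Slitrk genes gave 0 calls in 5 tested, by edgeR or DESeq2, with 0 at an unadjusted p under 0.05. Slitrk1 (1.18 ± 0.61), Slitrk3 (0.93 ± 0.57) and Slitrk4 (0.64 ± 0.89) had estimates above 0 and Slitrk5 (-1.13 ± 0.55, adjusted p = 0.28) and Slitrk2 (-0.24 ± 0.59) below it. Slitrk6 was below the filter.

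**Figure D2:**
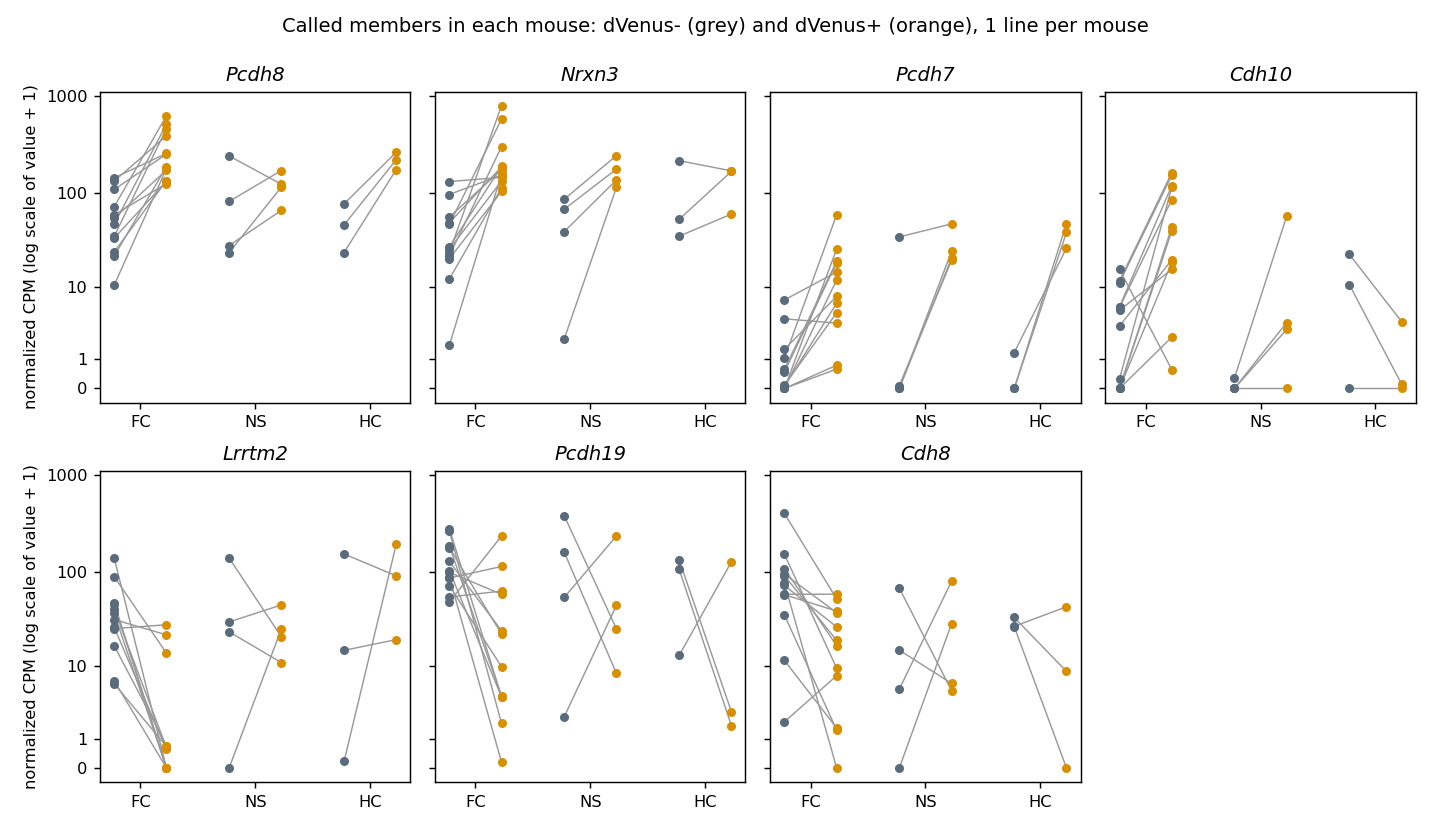
Normalized CPM (y axis, logarithm of the value plus 1) of the 7 members called in FC, in dVenus- (grey) and dVenus+ (orange) libraries of each mouse, joined by a line, for 12 FC, 4 NS and 3 HC mice (x axis). Pcdh8 and Nrxn3 rise in every FC mouse, and Lrrtm2 lies under 1 normalized CPM in 9 of 12 FC dVenus+ libraries.

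The clustered protocadherins were too sparse in pools of 10 cells for most tests. Of the 59 genes, 2 were found in no library, 46 in 1 to 9, 9 in 10 to 18 and 2 in 19 or more, namely Pcdhgc5 in 24 and Pcdhb16 in 21 of 38 libraries. A single FC dVenus+ library held 0 to 23 of them (median 7.5) and a dVenus- library 4 to 26 (median 14), and the libraries of the same mouse shared 0 to 9 (median 3). These numbers are not adjusted for depth, and FC dVenus+ libraries were shallower (median total of 7080448 against 9955727 counts). In NS and HC mice 1 to 12 clustered genes were found per library. Only variable first exons of alpha and gamma genes give reads that belong to 1 gene, and the beta genes are near copies, so reads of these genes may have been lost to the requirement of unique alignment. In FC, 4 clustered genes were tested and 0 were called, by edgeR or DESeq2, with 0 at an unadjusted p under 0.05: Pcdhgc5 (-1.38 ± 0.94, adjusted p = 0.48), Pcdhb16 (-1.55 ± 1.46), Pcdhgb1 (-0.86 ± 1.27) and Pcdhb17 (-0.69 ± 1.27). Pcdhgc5, one of the C-type genes expressed without promoter choice, showed how 1 library can set a mean: its highest value, 301 normalized CPM, was in the dVenus+ library of mouse 14, while 5 dVenus+ libraries held none.

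By cluster, summed CPM of the 22 beta genes in FC mice was 43.0 ± 33.6 for dVenus+ and 139.5 ± 78.1 for dVenus- cells (SD, n = 12), and the normalized sum was lower in dVenus+ cells in 11 of 12 mice. In NS mice the beta sums were 63.4 and 39.8, and in HC mice 40.1 and 127 (55.0 and 81.0 as normalized sums). The normalized sum was higher in dVenus+ cells in 3 of 4 NS and 2 of 3 HC mice. The unscaled sum was higher there in 2 of 4 NS and 1 of 3 HC mice. In FC mice the alpha sums were 48.8 ± 62.9 and 48.6 ± 39.0, and the gamma sums 95.0 ± 89.8 and 97.8 ± 84.7, an order that turned for normalized gamma sums (98.2 and 77.6). These sums were not tested. The 2 tested beta genes were among those not called.

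**Figure D3:**
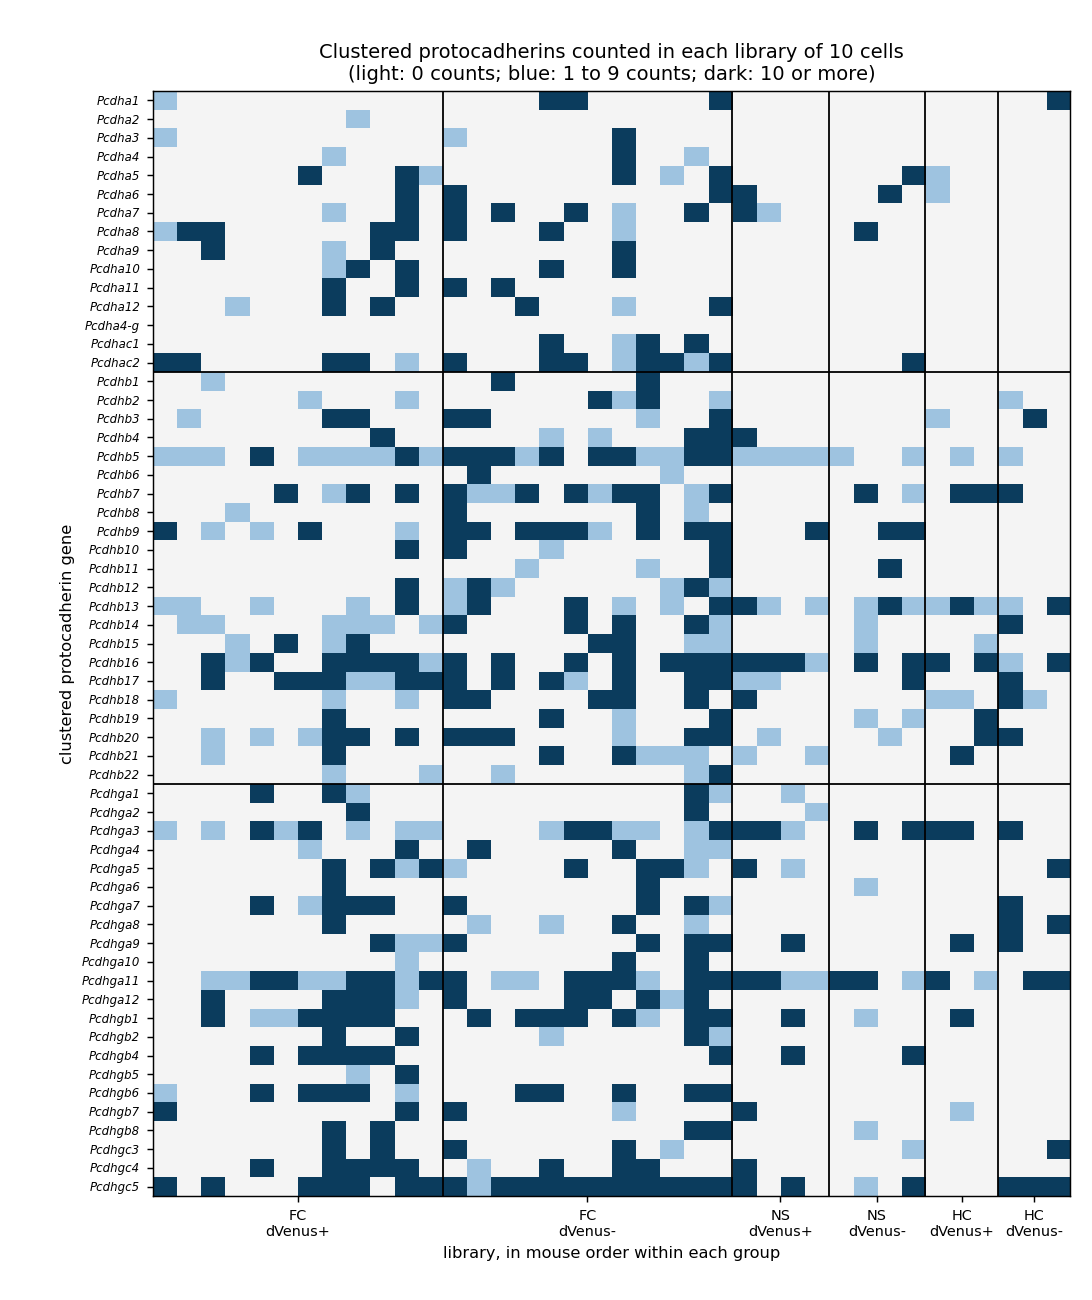
Each row is 1 of the 59 clustered protocadherin genes (y axis) and each column 1 of 38 libraries (x axis), with light cells for 0 counts, blue for 1 to 9 and dark for 10 or more. Most rows are dark in scattered libraries only, and no row is dark in all 38 libraries.

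Without shock or training, fewer mice were sampled and no member was called. In NS mice 30 members were tested, 2 had an unadjusted p under 0.05 and 0 were called, where 0.0489% of 8187 genes were called (0.0366% as higher, 0.0122% as lower) and 8.67% had such a p. In HC mice 32 members were tested, 2 had such a p and 0 were called, where 0 of 7588 genes were called and 7.01% had such a p. The older method called 0 members in either group (0 and 2 at an unadjusted p under 0.05), and DESeq2 called 2 in each, Cdh12 and Pcdh7 in NS and Pcdh7 and Pcdhgc5 in HC, where it called 8.13% and 8.24% of all genes.

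Pcdh7 had an unadjusted p under 0.05 in both groups. In NS mice 18, 19, 20 and 21 it was at 20.7, 47.6, 24.4 and 19.5 normalized CPM in dVenus+ and at 0, 34.8, 0 and 0.0682 in dVenus- libraries. It was higher in dVenus+ cells in 4 of 4 NS mice (17.1% of the genes tested went the same way in all 4), and only the dVenus- library of mouse 19 reached into the dVenus+ range (log2 fold change 4.01 ± 1.90, adjusted p = 0.57). In HC mice 15, 16 and 17 it was at 47.9, 26.5 and 38.8 in dVenus+ and at 0, 1.33 and 0 in dVenus- libraries. The HC groups did not overlap, as for 15.2% of the genes tested there (log2 fold change 7.11 ± 2.53, adjusted p = 0.68).

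Nrxn3 was at 176, 243, 114 and 137 normalized CPM in dVenus+ and at 67.8, 86.02, 2.21 and 39.5 in dVenus- libraries of the 4 NS mice, again without overlap, as for 6.05% of the genes tested in NS (2.29 ± 1.04, adjusted p = 0.56). In HC mice it was at 167, 169 and 60.3 in dVenus+ and at 53.2, 216 and 35.4 in dVenus- libraries, higher in 2 of 3 (0.69 ± 1.13). Pcdh8 was at 264, 221 and 175 in HC dVenus+ libraries against 76.9, 46.5 and 23.7 in dVenus- libraries, higher in 3 of 3 mice (2.30 ± 1.09, adjusted p = 0.72), where 30.1% of the genes tested went the same way in all 3. In NS mice Pcdh8 was at 115, 123, 170.3 and 65.9 against 23.7, 241, 81.7 and 28.2, and mouse 19 had more in dVenus- cells (0.91 ± 1.00).

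Pcdhgc5 held no count in the 3 HC dVenus+ libraries and 44.3, 13.7 and 64.7 normalized CPM in the dVenus- libraries, at least 61.5-fold lower in dVenus+ cells against a floor of 3 counts per library, with an adjusted p of 0.68. In NS mice it was at 46.8, 0, 8.54 and 0 in dVenus+ and at 0, 0.454, 0 and 40.2 in dVenus- libraries. The floor covers counting error only, since the reads carry no molecular identifiers.

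The other genes with the lowest p-values of their family in these groups were far from the threshold. Their unadjusted edgeR p ran from 0.062 (Pcdhga3 in HC) to 0.62 (Pcdhga11 in NS). In NS these were Cdh12 (3.82 ± 2.29, adjusted p = 0.63), Cdh9 (1.51 ± 1.26), Pcdh20 (-1.37 ± 1.02), Pcdh10 (1.73 ± 1.59) and the clustered Pcdhb16 (3.04 ± 2.19), Pcdhga3 (1.00 ± 1.57) and Pcdhga11 (0.56 ± 1.12). In HC they were Pcdhga3 (6.00 ± 2.89, adjusted p = 0.72), Pcdhb16 (-2.52 ± 2.92), Pcdh9 (1.97 ± 1.23) and Cdh13 (-3.57 ± 2.68).

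Lrrtm2 and Cdh10, both called in FC, had other estimates in the smaller groups. Lrrtm2 was at 21.1, 45.9, 25.6 and 11.0 in NS dVenus+ and at 141, 30.4, 0 and 23.9 in NS dVenus- libraries (0.03 ± 1.53). In HC it was at 19.7, 196 and 92.1 in dVenus+ and at 15.1, 0.167 and 155 in dVenus- libraries (1.39 ± 1.92). Cdh10 was at 57.4, 0, 3.03 and 3.74 in NS dVenus+ and at 0.276, 0, 0 and 0 in NS dVenus- libraries, below the filter. In HC it was at 3.85, 0 and 0.107 against 22.7, 0 and 10.6 (-3.58 ± 2.03, adjusted p = 0.72). Pcdh19 had estimates of -0.59 ± 1.65 in NS and -3.19 ± 2.66 in HC mice, and Cdh8 of 1.08 ± 2.00 and -1.52 ± 1.97.

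**Figure D4:**
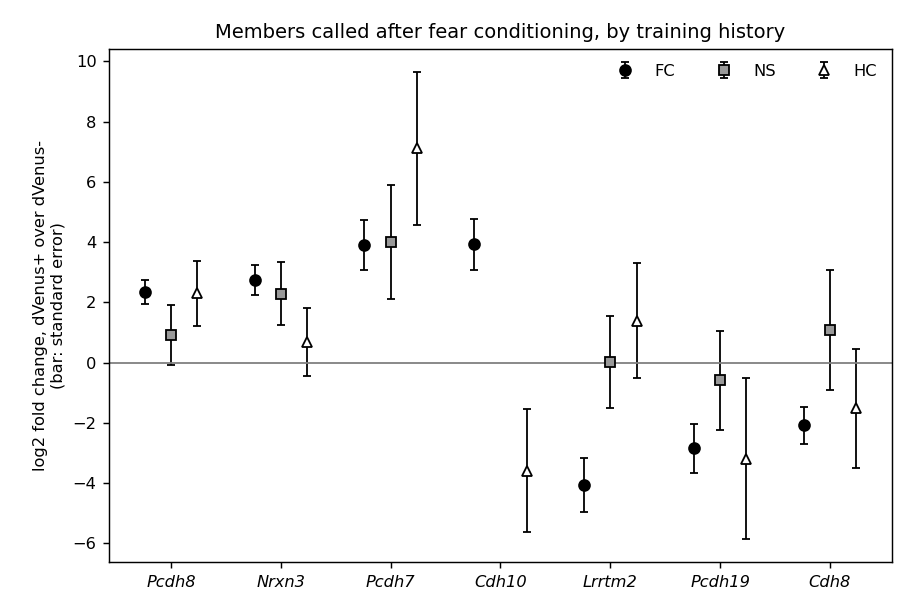
Log2 fold change of dVenus+ over dVenus- cells (y axis) with its standard error for the 7 members called in FC (x axis), in FC (filled circles, n = 12 mice), NS (grey squares, n = 4) and HC mice (open triangles, n = 3). Pcdh8, Nrxn3 and Pcdh7 have estimates above 0 in all 3 groups, and Cdh10 was not tested in NS.

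Whether the difference between dVenus+ and dVenus- cells itself differed with training was tested in 1 fit of all 38 libraries over 14075 genes. The sample IDs of NS and HC mice open with another code than those of any FC mouse, so that training history and this code cannot be told apart. No member of 87 tested was called for either contrast, and none of the 14075 genes was (0% of genes), with 6 members at an unadjusted p under 0.05 for FC against NS (8.18% of genes) and 7 for FC against HC (9.26%). The older method called 0 members as well. DESeq2 called 6 of 87 members for FC against NS, where it called 8.47% of all genes, and 8 of 87 for FC against HC, where it called 11.2%.

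The lowest p for FC against HC belonged to Slitrk1, whose log2 fold change was larger in FC by 10.21 ± 2.86 (adjusted p = 0.40). Its counts in the 3 HC dVenus+ libraries were close to 0 (0.214, 0 and 0.107 normalized CPM, against 5.49, 0.334 and 149 in dVenus- libraries), so that estimate rests on few dVenus+ reads. Most HC dVenus- reads of Slitrk1 came from mouse 17 (1718 counts, against 86 in mouse 15 and 2 in mouse 16). Cdh10 followed at 7.29 ± 2.33 (adjusted p = 0.40) and Cdh11 at -4.45 ± 1.51 (adjusted p = 0.40). For FC against NS, Cdh11 (-5.03 ± 1.77, adjusted p = 0.55), Nlgn2 (-3.04 ± 1.17, adjusted p = 0.58) and Pcdhb18 (-12.62 ± 4.78, adjusted p = 0.58) led. Pcdhb18 held no count in the 4 NS dVenus- libraries, and of the NS dVenus+ libraries only that of mouse 18 held any (114 counts). Cdh11 was among the 3 lowest p-values of both contrasts, which share the FC libraries. It was higher in dVenus+ cells in 4 of 4 NS mice (29.6, 2.44, 3.03 and 4.37 against 0, 0.151, 0 and 2.80 normalized CPM) and in 3 of 3 HC mice (30.8, 28.2 and 26.9 against 9.19, 0 and 6.00), with adjusted p of 0.58 and 0.74 within those groups. Of all genes tested, 17.1% in NS and 30.1% in HC went the same way in every mouse. In NS mouse 21 the direction of Cdh11 rests on the scaling. Its counts were 21 in dVenus+ and 41 in dVenus- cells, at library totals of 8470731 and 8415900. Nlgn2 was higher in dVenus+ cells in 4 of 4 NS mice (46.1, 79.9, 43.6 and 10.6 against 4.96, 11.6, 21.4 and 1.36). For Lrrtm2 the difference was -5.58 ± 1.95 against HC (adjusted p = 0.41) and -4.11 ± 1.76 against NS (adjusted p = 0.59), and for Nrxn3 1.87 ± 1.08 and 0.39 ± 1.01.

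Binding partners of these families, kept in 4 lists of 59 genes, gave 7 calls among 49 genes tested in FC mice, 1 higher and 6 lower, where 4.35% of all genes were called, 1.5% as higher and 2.84% as lower. Of 16 tested partners of neurexins and neuroligins, C1ql2, a secreted synaptic organizer of granule cells that is also among the granule cell markers, and Lin7b, a presynaptic scaffold, fell. C1ql2 was lower in 12 of 12 mice (log2 fold change -2.02 ± 0.48, adjusted p = 0.013), and so was Lin7b (-2.66 ± 0.68, adjusted p = 0.019). Of 13 tested receptor phosphatases and their other ligands, the netrin-G ligand Lrrc4c rose (1.84 ± 0.49, adjusted p = 0.029) while its relative Lrrc4b (-3.34 ± 0.84, adjusted p = 0.017) and the receptor subunit Il1rap (-2.29 ± 0.57, adjusted p = 0.018) fell. Of 13 regulators of protocadherins, the kinase Ptk2b, which clustered protocadherins inhibit, fell in 12 of 12 mice (-1.75 ± 0.31, adjusted p = 0.0012), as did Wasf1 of the WAVE actin complex in 11 of 12 (-1.62 ± 0.38, adjusted p = 0.011). None of 7 tested catenins and cadherin adaptors was called, and Jup (2.59 ± 1.07, adjusted p = 0.18) and Ctnna2 (-1.43 ± 0.61, adjusted p = 0.20) had the lowest p among them, the only 2 under 0.05 before adjustment. DESeq2 called both. The older method called 2 of these genes, Ptk2b and Wasf1, and no gene of the lists was called within the sets of 2, 4 and 6 mice, where 7, 7 and 12 had an unadjusted p under 0.05, as did 7.66%, 10.9% and 10.7% of all genes.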

How the data were processed

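RNA was measured in 38 libraries, each of 10 aspirated cells. The authors deposited counts per gene, made by aligning single reads to mm10 with TopHat2 2.0.13 and counting uniquely aligned reads on NCBI transcripts with HTSeq 0.6.0, without normalization. The strand setting is not given in the sources used here. Each library lists 23420 genes and 5 entries that name no gene. The latter stayed out of all totals, and reads outside genes came to 16.4% to 59.7% of each library. A deposited table of 11802 genes repeats the same counts and was not used. Columns of other samples numbered 0.

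Groups, mice and cell types were taken from titles and characteristics. The dVenus+ and dVenus- libraries of a mouse are paired because both come from the same animal. As a check, the deviations of a pair from the group means correlated at a median of 0.0484 for FC, -0.0151 for NS and 0.0228 for HC.

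Counts were tested with edgeR 4.0.16 in R 4.3.3 (TMM, estimateDisp, glmQLFit, glmQLFTest, two-sided) with the mouse as block, each training group in its own fit, on genes reaching 10 counts in 12 (FC), 4 (NS) or 3 (HC) libraries. The newer quasi-likelihood method of edgeR was used, as in an earlier processing of these files, although the version used here defaults to the older one, which was run as an alternative. p-values were adjusted by Benjamini-Hochberg over all genes tested, and calls needed an adjusted p under 0.05 and an absolute log2 fold change over 1. The interaction with training history was fitted on all libraries and genes reaching 10 counts in 3 of them, and needed an adjusted p under 0.05. Normalized CPM are counts divided by TMM-scaled library sizes. They are used because plain CPM shift the median gene by -0.30 (FC), -0.56 (NS) and -0.87 (HC) on the log2 scale between cell types.

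Genes are named if called, if they are neurexins, neuroligins, Lrrtm or Slitrk genes, if they had one of the 3 lowest p-values of the clustered protocadherins, other protocadherins or cadherins in a group or of the members in an interaction, or if they had one of the 3 highest mean CPM in FC; of the partner lists, the called genes and the 2 with the lowest p-values in FC. The members, lists and tests were chosen with earlier results of these data known. A gene that the choice by symbol also takes in is not reported here, in any count of members or sum. Alternatives were DESeq2 1.42.0, its size factors, other filters, no block, subsets of mice and leaving out each mouse, with the older method and the subset by Arc counts chosen after seeing the data. Scripts were tested on simulated data.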

Additional observations from a re-analysis of the deposited data

Results flagged for a closer look

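In 12 of 36 groups of 4 NS libraries, the highest or the lowest library lay far from the other 3, by the 95% critical value of Dixon for the gap to the nearest library over the whole range. Chance marks about 1 in 20 such groups only where values are independent and normally distributed. These groups share libraries and some hold values at or near 0, so an excess over chance cannot be read from them. Normalized CPM are given for genes and summed CPM for families. Among the genes called in FC, Cdh10 reached 57.4 in the dVenus+ and 0.276 in the dVenus- library of mouse 18, Pcdh19 reached 238 in the dVenus+ library of mouse 20, and Pcdh7 reached 34.8 in the dVenus- library of mouse 19. The dVenus+ library of mouse 18 was the highest for the alpha protocadherins (41.6), the gamma protocadherins (201) and the Slitrk genes (537). The dVenus- library of mouse 21 was the highest for the alpha protocadherins (52.0), the gamma protocadherins (112), the Lrrtm genes (675) and the cadherins outside the classical types (65.6). A lowest sum was set apart in this way for the neuroligins in the dVenus+ library of mouse 19 (62.0).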

How the results depend on the processing

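The number of members called in FC mice was 7. It was 3 with the older quasi-likelihood method, 0 in each of the sets of 2, 4 and 6 mice that share a sample ID code, 3 without the 3 mice with over 100 Arc counts in dVenus- cells, 3 without the 3 mice with a library under 5000000 counts, and 4 to 8 when 1 mouse was left out, with 4 without mouse 14. It stayed within 1.5 times 7 with no replicate block (7), size factors (6), either other filter (5 and 5) and DESeq2 (10). Without the replicate block Pcdh17 was called and Pcdh19 was not. None of the 7 members changed direction in FC under any alternative that could be fitted. Over all genes tested in FC, 422 were called, against 137 with the older method, 1635 with DESeq2, 0, 12 and 15 in these sets, 154 without the mice with many Arc counts and 202 without the shallow libraries. In NS and HC mice 0 members were called with and without the block and in every fit that left out 1 mouse (0 to 0), whereas DESeq2 called 2 in each.

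Partner genes called in FC numbered 7. The count was 2 with the older method, 12 with DESeq2, 0 in each set, 1 without the mice with many Arc counts, 2 without the shallow libraries, and 6 to 8 when 1 mouse was left out.

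For the interactions 0 members were called with and without the replicate block and in every fit that left out 1 NS or HC mouse (0 to 0), and DESeq2 called 6 for FC against NS and 8 for FC against HC. Leaving out FC mice in these fits was not run. As normalized sums, the cadherins outside the classical types in HC dVenus+ libraries came to 2.10 in place of 1.28 CPM, and the Lrrtm genes in NS dVenus+ libraries to 127 in place of 101. The gamma protocadherins in HC mice came to 137 in dVenus+ and 53.7 in dVenus- libraries in place of 57.8 and 88.4, and the neuroligins in HC dVenus- libraries to 104 in place of 185.

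The log2 fold changes that changed sign all belong to genes not called in that contrast. In FC these were Lrrtm3 (0.21) and Pcdhgc5 (0.45) with no replicate block, Lrrtm3 (1.37), Pcdh20 (-0.78) and Pcdhgb1 (0.93) in the set of 6 mice, Pcdh9 (0.28) in the set of 4, Slitrk1 (-0.89), Slitrk2 (0.97), Slitrk3 (-0.024) and Jup (-0.28) in the set of 2, Pcdhgb1 (0.75) without the mice with many Arc counts and Slitrk4 (-0.24) without the shallow libraries. In NS mice Lrrtm2 went to -0.91 with no replicate block and to -0.029 with no count filter. In the interaction of FC and NS, Pcdh7 went to 1.62 with no replicate block. In that of FC and HC, Pcdh19 went to -0.72 with no replicate block, Cdh8 to 0.15 with DESeq2, Pcdhb18 to -1.55 with the older method, and Pcdh8 to 0.22 with DESeq2, 0.22 with its size factors and 0.076 with the filter of 10 libraries. Leaving out 1 mouse gave ranges across 0 for Lrrtm4 (-0.37 to 0.086) and Pcdh20 (-0.17 to 0.24) in FC, for Cdh8 (-0.67 to 2.70), Lrrtm2 (-1.22 to 1.12), Pcdh19 (-2.56 to 1.33) and Slitrk1 (-1.32 to 0.048) in NS, and for Lrrtm2 (-0.21 to 3.57) and Nlgn2 (-0.76 to 2.11) in HC. In the interaction of FC and NS this was so for Pcdh7 (-5.23 to 0.33), and in that of FC and HC for Cdh8 (-1.72 to 0.73), Nlgn2 (-2.83 to 0.037), Pcdh19 (-2.67 to 2.71), Pcdh8 (-0.41 to 0.15) and Pcdhb18 (-5.25 to 2.14). The cause was not tested. With 10 cells per library, few counts limit the estimates of most clustered protocadherins.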
